A study of Mus musculus with 10 samples.

Results

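The Wnt pathway genes described here are 51 of the 26063 genes in the deposited table, matched by name. The names were chosen with earlier results of these data known. The 51 genes comprise 18 Wnt ligands, 12 Frizzled receptors and LRP co-receptors, 7 secreted antagonists (Sfrp1, Sfrp2, Sfrp4, Sfrp5, Dkk2, Dkk3 and Wif1), 6 R-spondins and their LGR receptors, the scaffold Axin1, and 7 feedback targets (Axin2, Lef1, Nkd1, Nkd2, Rnf43, Znrf3 and Notum). Wnt3, Dkk1, Dkk4 and Rspo4 were not found in the table under these names, so they are missing from every count and sum below. Their RNA was measured by bulk sequencing of 10 mammary tumours from female FVB/N mice, 5 with the genotype 16IC/WT (16IC) and 5 with the genotype EIC/WT (EIC). Mice of both genotypes received doxycycline (2 mg/ml), and tumours were frozen when collected at the animals' end point. What 16IC and EIC stand for is not written out in the labels, and the sources used here do not give the animals' ages or the promoter and cell type that drive the alleles. The series title names a HER2 splice variant, HER2∆16, and ENPP1. Each tumour is labelled as its own animal, and the number after a genotype only tells its tumours apart.

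Wnt proteins are secreted lipid-modified ligands that bind Frizzled receptors. In the canonical branch, Frizzled and the co-receptor LRP5 or LRP6 together stop a destruction complex built on Axin from degrading beta-catenin, which then enters the nucleus and switches on genes with TCF and LEF proteins. Several of those genes are brakes: Axin2 rebuilds the destruction complex, NKD proteins bind Dishevelled, RNF43 and ZNRF3 remove Frizzled from the cell surface, and Notum strips the lipid from Wnt. R-spondins, bound to LGR receptors, release the RNF43 and ZNRF3 brake. SFRP and WIF1 proteins capture Wnts, and some DKK proteins act at the co-receptor. In the mammary gland, Wnt signalling is known for its part in branching, in the response to progesterone and in the upkeep of basal stem cells.

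Of the 51 genes, 35 had enough counts to be tested, and 16 did not. No gene of the pathway, and no gene of the table, passed an adjusted p of 0.05 in edgeR's quasi-likelihood test. The background is therefore 0.0% of 14915 genes. At an unadjusted p under 0.05 the edgeR test took 3 of the 35 genes (8.57%), against 13.1% of all genes tested. They were Rnf43 and Wnt4, higher in 16IC as 6.84% of all genes tested were at this p, and Nkd2, lower in 16IC as 6.29% were. DESeq2 on the same counts called 356 of the 16838 genes to which it gave an adjusted p (2.11%), and 1 of the 43 pathway genes among them, Nkd2. No pathway gene had 16IC and EIC values that did not overlap, which 2.58% of all genes tested had. Among the 35 genes, 13 had a log2 difference above 0 and 22 below 0 (median -0.16), and over all genes tested 47.7% were above 0 and 52.3% below (median -0.02). Scaled by total counts, the same 35 genes split 10 and 25 (median -0.21), and all genes tested split 6387 and 8528 (median -0.07). With voom weights the 35 genes split 16 and 19.

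**Figure D1:**
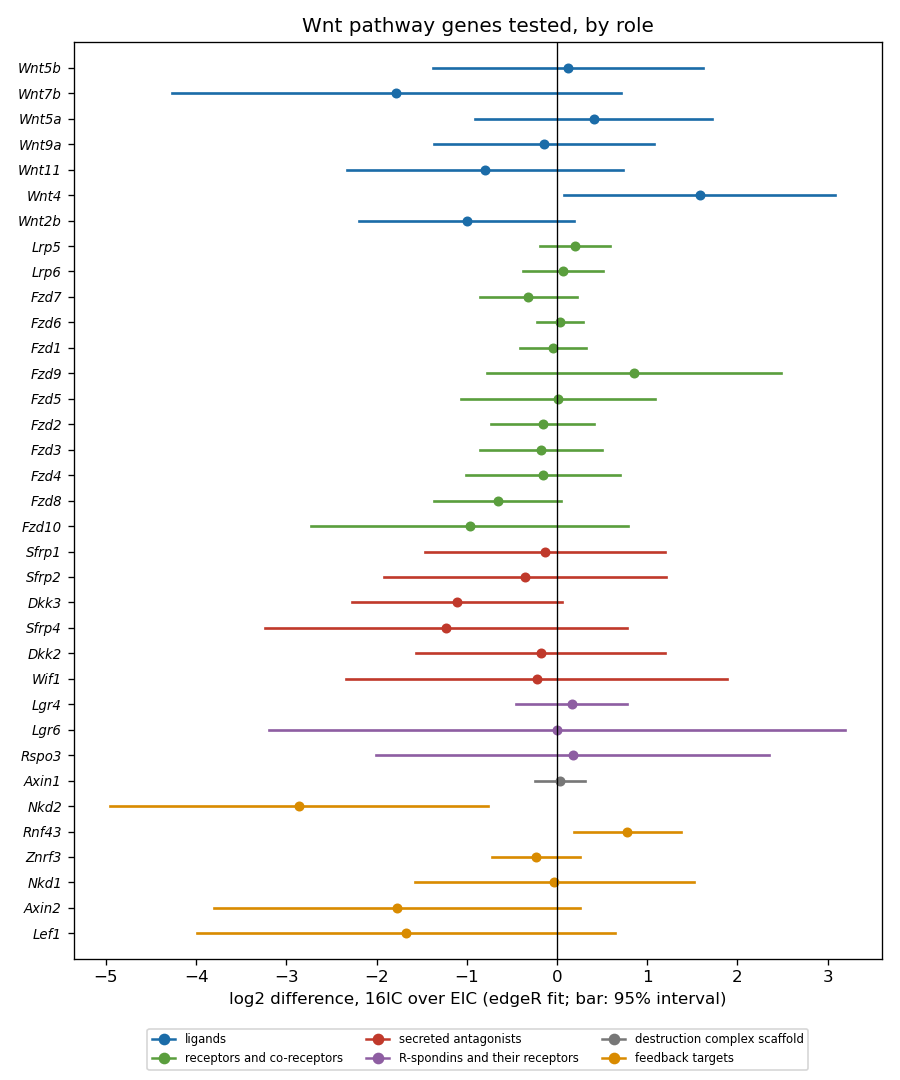
Log2 difference between 16IC and EIC tumours (x axis) for each of the 35 Wnt pathway genes tested (y axis, grouped and coloured by role), with 95% intervals from the edgeR fit. The intervals of Nkd2, Rnf43 and Wnt4 leave out 0, and those of Lgr6, Wnt7b and Lef1 are several log2 units wide.

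Depth was similar throughout, 14813940 to 16947400 counts per library. Luminal keratin genes were high in every tumour, in accord with the label mammary tumour, with Krt8 at 902 ± 204 CPM in 16IC and 1267 ± 461 in EIC, and Krt18 at 1016 ± 383 and 946 ± 303 CPM in 16IC and in EIC (mean ± SD, n = 5). CPM is a count scaled to library size by TMM, and it does not correct for gene length. Levels of different genes are compared below only in FPKM, the authors' values scaled to gene length and library size. Other cell types differed among tumours too. Basal and myoepithelial markers summed to 36.0 to 217 CPM in 16IC and 143 to 675 CPM in EIC, with 9 of 10 below 0 in log2 difference, 4 at an unadjusted p under 0.05 and 2 called by DESeq2 (Actg2 and Krt17). Fibroblast markers summed to 422 to 3525 CPM in 16IC and 1808 to 6884 CPM in EIC, with 11 of 12 below 0. Skeletal muscle markers summed to 1.16 to 386 CPM in 16IC and 3.06 to 2471 CPM in EIC, with all 8 below 0. Markers of skin and hair follicle were low, 7.20 to 8.94 CPM in 16IC and 6.56 to 38.4 CPM in EIC. Macrophage, endothelial and adipocyte sums overlapped between genotypes, with 9 of 10, 7 of 10 and 6 of 8 markers below 0. Other lists leaned the other way. Schwann cell and nerve markers summed to 813 to 1029 CPM in 16IC and 518 to 1168 CPM in EIC, with 4 of 6 above 0. Of the luminal markers tested, 7 of 11 were above 0. In pieces of whole tumour, fewer cells of a type and less RNA per cell cannot be told apart.

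The promoters of the 4 feedback targets with the largest log2 differences in either direction (Nkd2, Axin2, Lef1 and Rnf43) are printed because the feedback targets are read below as a group and these are the members that differ most. Shown are the 250 bases before a transcription start, read 5′ to 3′ on the gene's strand (RefSeq, GRCm38.p6). Capitals mark the core of TCF and LEF binding sites, searched as CTTTGA and CTTTGT and their reverse complements TCAAAG and ACAAAG, which cover both strands and do not overlap one another here. The Nkd2 window lies at chr13:73847632-73847881 on the minus strand, and the others on the plus strand at chr11:87662837-87663086 (Rnf43), chr11:108920099-108920348 (Axin2) and chr3:131156044-131156293 (an internal start of Lef1).
Nkd2: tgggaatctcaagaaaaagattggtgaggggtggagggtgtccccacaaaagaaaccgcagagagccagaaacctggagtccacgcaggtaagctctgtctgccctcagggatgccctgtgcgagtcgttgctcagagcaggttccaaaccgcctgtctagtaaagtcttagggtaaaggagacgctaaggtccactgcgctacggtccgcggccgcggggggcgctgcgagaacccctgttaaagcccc
Rnf43: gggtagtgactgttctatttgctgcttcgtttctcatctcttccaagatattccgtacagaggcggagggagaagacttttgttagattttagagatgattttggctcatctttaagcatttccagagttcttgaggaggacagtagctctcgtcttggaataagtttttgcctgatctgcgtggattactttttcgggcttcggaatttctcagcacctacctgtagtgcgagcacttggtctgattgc
Axin2: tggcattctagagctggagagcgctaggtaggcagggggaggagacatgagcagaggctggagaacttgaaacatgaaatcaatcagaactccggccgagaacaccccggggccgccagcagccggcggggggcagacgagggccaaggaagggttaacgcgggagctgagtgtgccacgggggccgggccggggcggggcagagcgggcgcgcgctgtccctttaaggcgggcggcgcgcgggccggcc
Lef1: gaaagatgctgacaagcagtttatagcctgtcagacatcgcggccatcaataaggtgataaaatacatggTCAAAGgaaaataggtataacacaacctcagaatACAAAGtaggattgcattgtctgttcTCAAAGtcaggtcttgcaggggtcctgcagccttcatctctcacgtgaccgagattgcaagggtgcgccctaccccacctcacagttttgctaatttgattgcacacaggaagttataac
Only the Lef1 window of these 4 holds matches, at positions -180, -146 and -120 from the start. The other 3 of the 4 RefSeq starts of Lef1 and the other start of Rnf43 hold none. The printed Lef1 window is thus the only window of Lef1 with matches. Its contrast with the other printed genes depends on which start is shown and is not a result. Over all pathway genes, 7 of 32 with a window had a match (21.9%), against 30.8% of all 26994 genes with one. The absence of these letters from so short a window says nothing about binding elsewhere.

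Among ligands, 7 of 18 were tested, 3 above and 4 below 0 in log2 difference, and 1 had an unadjusted p under 0.05. The ligand transcripts of every tumour were mostly Wnt5b. Wnt5b and the closely related Wnt5a are known mainly for branches of the pathway that do not use beta-catenin, and Wnt7b can act through beta-catenin. Per length, Wnt5b averaged 42.3 ± 40.2 FPKM in 16IC and 38.9 ± 22.8 FPKM in EIC. Next came Wnt7b with 5.16 ± 5.64 FPKM in 16IC and 17.9 ± 12.7 FPKM in EIC, then Wnt5a with 4.47 ± 3.0 and 3.39 ± 2.20 FPKM in 16IC and in EIC (SD, n = 5). These neighbours overlap within their spread, except Wnt5b, whose share of the summed ligand FPKM was the largest in each of the 10 tumours, 52.4% to 84.0% in 16IC and 50.05% to 64.0% in EIC. Wnt5a, Wnt5b and Wnt7b together made up 86.4% to 96.8% of it in 16IC and 88.1% to 97.6% in EIC. The Wnt7b share was 1.12% to 13.7% in 16IC and 2.32% to 38.2% in EIC.

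**Figure D2:**
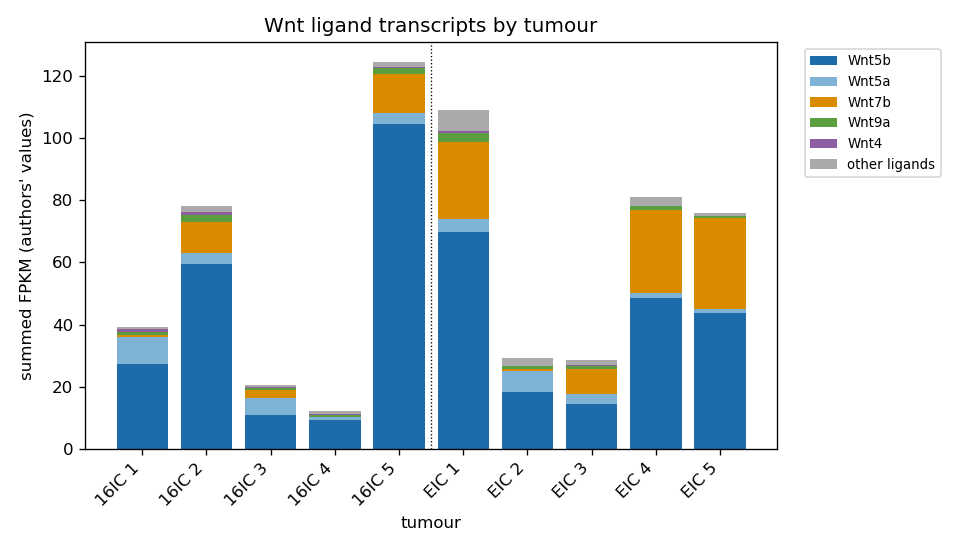
Summed FPKM of the 18 Wnt ligands (y axis) in each tumour (x axis), stacked by ligand, with 16IC left of the dotted line and EIC right of it. The sum runs from 12.1 FPKM in 16IC 4 to 124 FPKM in 16IC 5, Wnt5b is the tallest block in every bar, and Wnt7b is large in EIC 1, EIC 4 and EIC 5.

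Wnt4, a ligand that progesterone induces in luminal mammary cells, was the only ligand with an unadjusted p under 0.05 (chr4:137277489-137299726, plus strand, GRCm38). It had 3.24, 3.21, 2.25, 1.44 and 1.76 CPM in 16IC tumours 1 to 5, against 2.09, 1.01, 0.359, 0.0625 and 0.422 CPM in EIC tumours 1 to 5. Most 16IC values lie above the EIC values, and EIC 1 overlaps with the lower 16IC tumours. The log2 difference was 1.58 (SE 0.68, 95% interval 0.08 to 3.08), with an edgeR p of 0.0405, an adjusted p of 0.362 and an exact two-sided permutation p of 0.0238. The edgeR p was above 0.05 in 6 of the fits that leave out 1 tumour, and without EIC 1 the log2 difference was 2.34. Wnt4 was a minor part of the ligand pool, 0.331% to 2.76% of the summed ligand FPKM in 16IC and 0.0177% to 0.795% in EIC.

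Wnt5b (chr6:119432531-119544347, minus strand) had 73.3, 165, 30.4, 26.0 and 283 CPM in 16IC tumours 1 to 5, against 186, 50.7, 39.2, 134 and 120 CPM in EIC tumours 1 to 5. Both the highest and the lowest tumour are 16IC, and the genotypes overlap fully. The log2 difference was 0.12 (SE 0.67, 95% interval -1.37 to 1.62, edgeR adjusted p 0.948), and -0.57 with voom weights. Wnt7b (chr15:85535437-85582473, minus strand) had 2.59, 50.5, 14.7, 0.686 and 62.1 CPM in 16IC tumours, against 123, 3.45, 40.9, 136 and 146 CPM in EIC tumours. 3 EIC tumours stand above every 16IC tumour, while EIC 2 is nearly as low as 16IC 1. Its log2 difference of -1.78 (SE 1.12, 95% interval -4.27 to 0.70) did not pass the test (edgeR adjusted p 0.499). With voom weights it was -3.15 (p 0.0342, adjusted p 0.244). Of its exon sequence, 6.61% overlaps a gene on the other strand, so some of its reads could belong there.

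The other tested ligands, Wnt5a, Wnt9a, Wnt11 and Wnt2b, ran from -1.0 (Wnt2b) to 0.41 (Wnt5a) in log2 difference, none at an unadjusted p under 0.05. For Wnt11, 8.80% of the exonic bases overlap a gene on the other strand. The 11 untested ligands were low in every tumour, at most 4.75 CPM. Wnt8b had 2 counts over the 16IC libraries and 0 over the EIC libraries, and Wnt3a had 0 and 3 counts over the 16IC and the EIC libraries. Single tumours held much of what was seen. Wnt6 reached that level and Wnt10a 2.67 CPM, both in EIC 1, and all 77 counts of Wnt7a in EIC came from EIC 2.

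All 12 receptors and co-receptors were tested, and none had an unadjusted p under 0.05. 5 were above 0 and 7 below in log2 difference (3 and 9 under scaling by total counts, 7 and 5 with voom weights), between -0.97 (Fzd10) and 0.85 (Fzd9). Scaling by total counts put 6387 of all genes tested above 0 and 8528 below. By the mean FPKM over all 10 tumours the order was Lrp5, Fzd7, Fzd9, Lrp6, Fzd1 and Fzd6, then 6 lower receptors. In EIC alone Fzd7 stood before Lrp5 and Fzd1 (18.4 FPKM) level with Lrp6 (18.3 FPKM), and Fzd9 averaged 36.4 ± 27.1 FPKM in 16IC and 20.3 ± 19.95 FPKM in EIC. Lrp5 averaged 51.8 ± 5.07 FPKM in 16IC and 45.2 ± 9.45 in EIC, and Fzd7 averaged 42.2 ± 13.4 FPKM in 16IC and 52.9 ± 10.6 in EIC, so these neighbours do not differ beyond their spread. Fzd10, the lowest, averaged 0.156 ± 0.201 FPKM in 16IC and 0.311 ± 0.273 in EIC.

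The co-receptor genes were steady. Lrp5 (chr19:3584828-3686564, minus strand) had 532, 437, 576, 544 and 520 CPM in 16IC tumours 1 to 5, against 400, 491, 311, 553 and 512 CPM in EIC tumours 1 to 5. Most tumours of both genotypes lie together, with EIC 3 and EIC 1 lowest (log2 difference 0.20, SE 0.18, 95% interval -0.18 to 0.59, edgeR adjusted p 0.617). Lrp6 (chr6:134446476-134566965, minus strand) had 377, 199, 278, 254 and 242 CPM in 16IC tumours, against 203, 324, 306, 233 and 226 CPM in EIC tumours. Its highest and lowest tumours are both 16IC (log2 difference 0.06, SE 0.20, 95% interval -0.38 to 0.51, edgeR adjusted p 0.904). Fzd6, a receptor known from planar polarity of hair and skin, varied least of the members, 80.6 to 96.6 CPM in 16IC and 72.9 to 92.5 CPM in EIC, a 1.32-fold range over all 10 tumours.

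Some Frizzled genes varied several fold between tumours of 1 genotype. Fzd9 had 114, 25.2, 178, 96.5 and 20.9 CPM in 16IC tumours 1 to 5, against 9.45, 130, 43.9, 28.6 and 28.5 CPM in EIC tumours 1 to 5. It was high in 16IC 1, 16IC 3, 16IC 4 and EIC 2 and low in the others, so the genotypes overlap (log2 difference 0.85, SE 0.74, edgeR adjusted p 0.617). Fzd5 had 61.9, 25.4, 86.1, 70.5 and 26.7 CPM in 16IC tumours, against 27.9, 117, 60.7, 28.3 and 34.4 CPM in EIC tumours. The same 4 tumours were highest, and the log2 difference was 0.01 (SE 0.48, edgeR adjusted p 0.996). For Fzd5, 17.8% of the exonic bases overlap a gene on the other strand.

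6 of the 7 secreted antagonists were tested. All 6 had a log2 difference below 0 in the edgeR fit, between -1.23 (Sfrp4) and -0.13 (Sfrp1), and none had an unadjusted p under 0.05. The 6 were also below 0 under RLE and total-count scaling, but only 4 were with voom weights. Sfrp1 was 0.53 with voom and 0.48 without EIC 2, and Sfrp2 was 0.079 without EIC 1. Over all genes tested 52.3% were below 0 in the edgeR fit, and 8528 of 14915 were under total-count scaling. Their summed CPM was 124 to 325 in 16IC and 96.1 to 479 in EIC. Sfrp1, which binds Wnts in the extracellular space, was by far the most abundant per length, 39.2 ± 19.7 FPKM in 16IC and 43.2 ± 37.9 FPKM in EIC. Sfrp2 followed with 5.71 ± 5.26 FPKM in 16IC and 7.36 ± 4.87 FPKM in EIC.

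Sfrp1 (chr8:23411502-23449632, plus strand) had 212, 83.6, 318, 157 and 119 CPM in 16IC tumours 1 to 5, against 109, 462, 268, 94.9 and 40.2 CPM in EIC tumours 1 to 5. EIC holds both the highest tumour (EIC 2) and the lowest (EIC 5), and the genotypes overlap (log2 difference -0.13, SE 0.60, 95% interval -1.46 to 1.20, edgeR adjusted p 0.936). Sfrp2 (chr3:83766321-83774316, plus strand), a related Wnt-binding protein made largely by stromal cells, had 10.6, 17.2, 2.13, 3.08 and 30.1 CPM in 16IC tumours, against 33.1, 4.57, 12.8, 16.8 and 13.8 CPM in EIC tumours. It was lowest in 16IC 3, 16IC 4 and EIC 2, so the genotypes overlap (log2 difference -0.36, SE 0.71, 95% interval -1.92 to 1.21, edgeR adjusted p 0.839). Of the exonic bases of Sfrp2, 16.1% overlap a gene on the other strand. Dkk3, a divergent DKK family member, is counted with the antagonists by its name only. It averaged 8.72 ± 4.33 CPM in 16IC and 18.8 ± 11.9 CPM in EIC (log2 difference -1.11, SE 0.53, edgeR p 0.0600, adjusted p 0.394). Dkk2, Sfrp4 and Wif1 stayed at or under 13.4 CPM in every tumour, and Sfrp5 was not tested.

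3 of the 6 R-spondins and LGR receptors were tested, and none had an unadjusted p under 0.05. Lgr4 led per length with 22.5 ± 9.60 FPKM in 16IC and 20.2 ± 5.30 FPKM in EIC. Lgr6 followed with 10.4 ± 13.9 FPKM in 16IC and 10.4 ± 7.41 FPKM in EIC, and Rspo3 was the only R-spondin above the filter, 1.76 ± 1.71 and 1.57 ± 1.45 FPKM in 16IC and in EIC. For Rspo3, 13.1% of the exonic bases overlap a gene on the other strand. Lgr5, a stem cell receptor and Wnt target, had 44 counts over the 16IC libraries and 141 over the EIC libraries, 102 of them in EIC 1.

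Lgr4 (chr2:109917647-110014257, plus strand) had 168, 88.0, 119, 221 and 86.6 CPM in 16IC tumours 1 to 5, against 174, 99.4, 114, 103 and 120 CPM in EIC tumours 1 to 5. Both the highest and the lowest are 16IC (log2 difference 0.16, SE 0.28, 95% interval -0.46 to 0.78, edgeR adjusted p 0.813). Lgr6 (chr1:134983301-135105276, minus strand), known from stem cells of skin and mammary gland, had 3.10, 155, 6.45, 0 and 202 CPM in 16IC tumours, against 82.1, 1.19, 43.5, 136 and 103 CPM in EIC tumours. It was nearly on or off by tumour: at most 6.45 CPM in 16IC 1, 16IC 3, 16IC 4 and EIC 2 and at least 43.5 CPM in the other 6. Its means were the same, 73.3 ± 97.6 CPM in 16IC and 73.3 ± 52.5 CPM in EIC, and the log2 difference was 0.00 (SE 1.44, edgeR adjusted p 0.9996) with an interval of -3.19 to 3.20 that leaves room for large differences either way. Its sign changed under RLE scaling, the value was -3.09 with voom weights (p 0.155), and it ran from -0.85 without 16IC 5 to 0.33 without EIC 4.

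Axin1, the constant scaffold of the destruction complex (chr17:26138688-26195811, plus strand), had 70.1, 78.5, 62.7, 85.6 and 82.2 CPM in 16IC tumours 1 to 5, against 67.5, 72.4, 67.8, 78.1 and 85.5 CPM in EIC tumours 1 to 5. All 10 values lie within a 1.36-fold range (log2 difference 0.03, SE 0.13, 95% interval -0.25 to 0.31, edgeR adjusted p 0.930), and the sign turned under scaling by total counts.

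**Figure D3:**
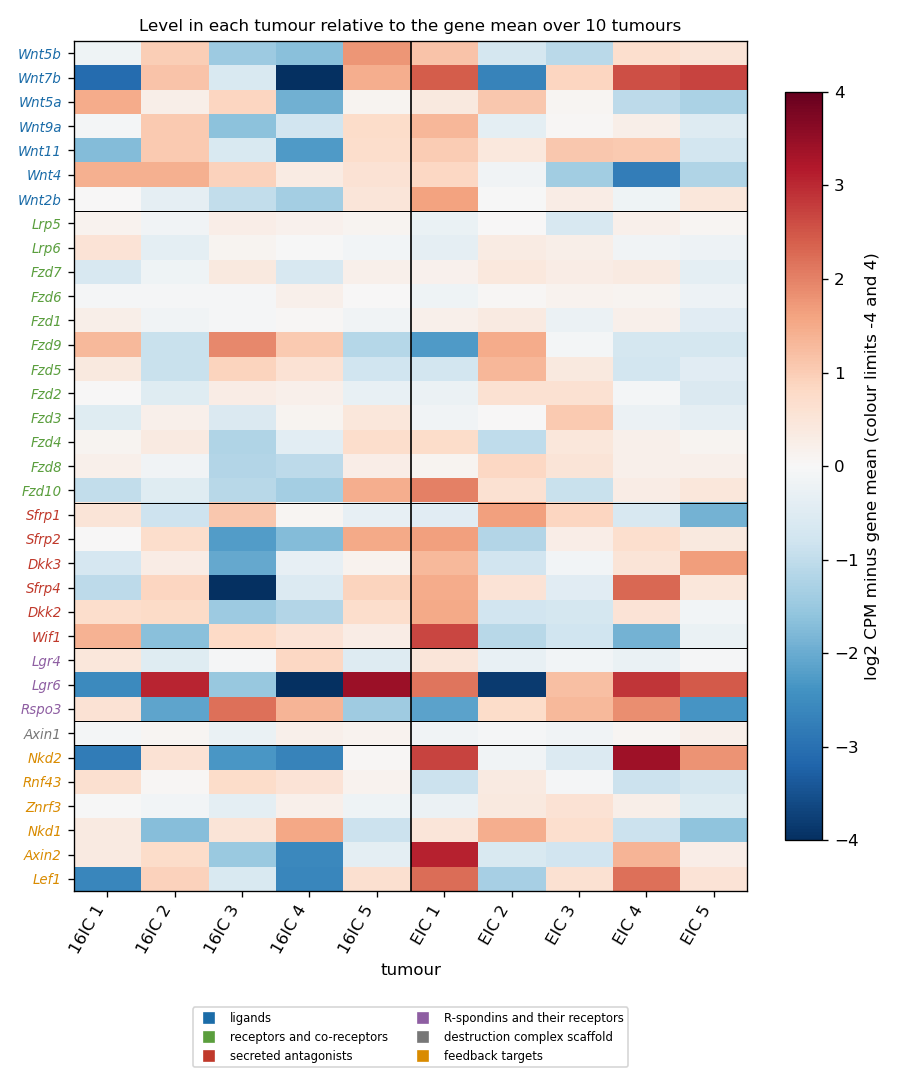
Level of each tested gene (rows, labels coloured by role) in each tumour (columns, 16IC left of the black line and EIC right of it) as log2 CPM minus the gene's mean over the 10 tumours. Lrp5, Lrp6, Fzd6 and Axin1 are almost even, while Lgr6, Wnt7b, Nkd2, Axin2 and Lef1 differ widely between tumours of 1 genotype.

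Of the 6 feedback targets tested, 2 had an unadjusted edgeR p under 0.05, as did 13.1% of all genes tested. Nkd2 had a negative and Rnf43 a positive log2 difference, neither passed edgeR's adjusted threshold, and Nkd2 passed that of DESeq2. Of 6 tested, Rnf43 was above 0 in log2 difference and Nkd2, Axin2, Lef1, Znrf3 and Nkd1 were below. RLE and total-count scaling gave the same split, while the fit without the low-count filter and voom put 2 above and 4 below, since Nkd1 lay close to 0 and turned to 0.00105 and 0.12 there. The summed CPM of the 7 was 121 to 140 in 16IC and 116 to 475 in EIC, and Nkd2 made up most of the EIC range. Per length Nkd2 was the highest of them in EIC, 35.1 ± 32.7 FPKM, against 4.81 ± 4.98 FPKM in 16IC. Rnf43 was the highest of them in 16IC, 11.8 ± 2.42 FPKM, against 6.90 ± 2.84 FPKM in EIC. Axin2 and Lef1 stayed low, with 0.209 ± 0.170 and 0.0599 ± 0.0667 FPKM in 16IC and 0.727 ± 0.936 and 0.198 ± 0.166 FPKM in EIC.

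Nkd2 (chr13:73818534-73847631, minus strand), which binds Dishevelled, had 5.55, 59.8, 7.78, 6.17 and 40.7 CPM in 16IC tumours 1 to 5, against 257, 36.0, 27.2, 414 and 137 CPM in EIC tumours 1 to 5. 3 EIC tumours stand above all 16IC tumours, 3 16IC tumours lie below all EIC tumours, and the remaining 4 overlap. The means were 24.0 ± 24.9 CPM in 16IC and 174 ± 163 CPM in EIC, and the log2 difference was -2.86 (SE 0.95, 95% interval -4.95 to -0.76). The edgeR p was 0.0122 with an adjusted p of 0.290, the exact two-sided permutation p was 0.0476, and DESeq2 gave an adjusted p of 0.0263, where 1.27% of genes were called as lower. Leaving out 1 tumour at a time, DESeq2 kept this call in 4 of 10 fits and lost it without 16IC 1, 16IC 3, 16IC 4, EIC 1, EIC 4 or EIC 5 (highest adjusted p 0.161), while the log2 difference in edgeR stayed between -3.53 and -2.26. The basal marker sums were also highest in EIC 1 (675 CPM) and EIC 4 (326 CPM). So were the sums of fibroblast (6884 and 4210 CPM) and endothelial markers (333 and 351 CPM). The luminal sum was highest in EIC 1 (14478 CPM) but not in EIC 4 (6668 CPM). The part of these cell types in the Nkd2 difference was not tested.

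Rnf43 (chr11:87662722-87735539, plus strand), the ubiquitin ligase that clears Frizzled, had 92.4, 60.1, 98, 85 and 65.1 CPM in 16IC tumours 1 to 5, against 32.2, 76.0, 56.9, 31.9 and 36.0 CPM in EIC tumours 1 to 5. All 16IC tumours exceed 4 of the 5 EIC tumours, and EIC 2 lies among the 16IC values. The means were 80.1 ± 16.7 CPM in 16IC and 46.6 ± 19.4 CPM in EIC (log2 difference 0.78, SE 0.27, 95% interval 0.18 to 1.38). The edgeR p was 0.0151, its adjusted p 0.301 and the exact two-sided permutation p 0.0317, and DESeq2 gave an adjusted p of 0.146. Without EIC 2 the edgeR log2 difference was 1.04 and DESeq2 called Rnf43 as well as Nkd2. Its relative Znrf3 (chr11:5276324-5444847, minus strand) had 16.4, 15.6, 12.7, 19.3 and 14.8 CPM in 16IC tumours, against 14.2, 22.0, 24.8, 19.7 and 11.9 CPM in EIC tumours. EIC holds its highest and lowest tumours (log2 difference -0.23, SE 0.22, 95% interval -0.72 to 0.26, edgeR adjusted p 0.651).

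Axin2 (chr11:108920349-108950783, plus strand), the target most often read as a gauge of beta-catenin activity, had 1.87, 2.44, 0.426, 0.137 and 1.06 CPM in 16IC tumours 1 to 5, against 13, 0.891, 0.779, 3.88 and 1.75 CPM in EIC tumours 1 to 5. EIC 1 stands far above the rest, and without EIC 1 the log2 difference of -1.77 (SE 0.92, 95% interval -3.80 to 0.26, edgeR adjusted p 0.422) was -0.62. EIC 1 also had the highest sums of luminal (14478 CPM), basal (675 CPM), fibroblast (6884 CPM) and macrophage markers (639.8 CPM). The same held for skin (38.4 CPM), B cell (16.3 CPM) and T and NK cell markers (17.9 CPM). Endothelial and adipocyte sums were highest in EIC 4, the skeletal muscle sum in EIC 2, and the Schwann cell sum was lowest in EIC 1. The part of these cell types in the Axin2 level of EIC 1 was not tested. Lef1 (chr3:131110471-131224356, plus strand), a transcription factor partner of beta-catenin, had 0, 1.31, 0.365, 0 and 1.06 CPM in 16IC tumours, against 3.42, 0.178, 1.02, 3.31 and 0.964 CPM in EIC tumours. EIC 1 and EIC 4 are highest, the other 8 overlap (log2 difference -1.67, SE 1.05, 95% interval -3.99 to 0.65, edgeR adjusted p 0.497). With voom weights the log2 difference was -3.11 (p 0.0254, adjusted p 0.228), and 13.7% of its exonic bases overlap a gene on the other strand.

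Nkd1 (chr8:88521354-88594884, plus strand), the other Dishevelled-binding brake, had 4.39, 0.952, 4.87, 10.1 and 1.82 CPM in 16IC tumours 1 to 5, against 4.81, 9.45, 5.51, 1.81 and 1.02 CPM in EIC tumours 1 to 5. The genotypes overlap fully (log2 difference -0.03, SE 0.70, 95% interval -1.58 to 1.52, edgeR adjusted p 0.991), and EIC 4, the highest tumour for Nkd2, was among the lowest for Nkd1. Notum, the Wnt deacylase, was below the filter with 0, 0.119, 0.122, 0 and 0 CPM in 16IC tumours, against 1.16, 0, 0, 0.125 and 0.0602 CPM in EIC tumours. Of its 23 counts in EIC, 20 came from EIC 1, and 38.1% of its exonic bases overlap genes on the other strand.

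**Figure D4:**
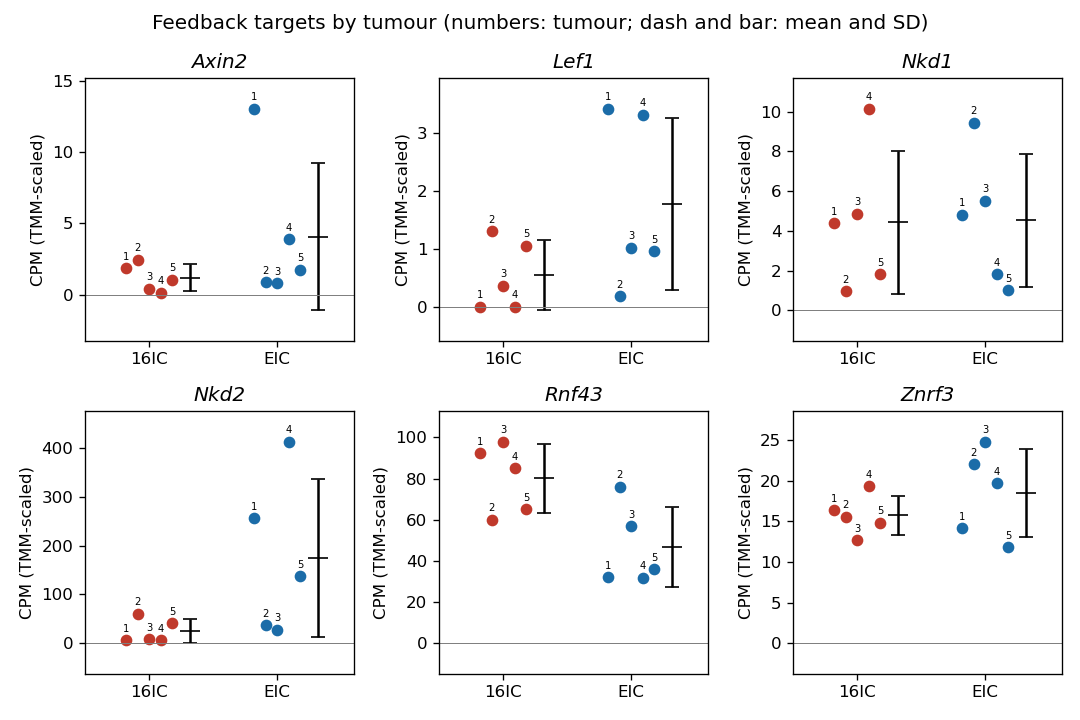
CPM (y axes, linear, 1 scale per gene) of the 6 tested feedback targets in each 16IC and EIC tumour (numbered points), with the mean and SD beside them. Nkd2 reaches 414 CPM in EIC 4, Rnf43 is above 60 CPM in every 16IC tumour, and Axin2 rests on EIC 1 at 13 CPM.

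Over the 10 tumours the feedback targets did not follow Axin2 as 1 block. Across 5 genes compared with Axin2 on the log2 CPM scale, Nkd2 had a Pearson r of 0.767 (permutation p 0.00806, adjusted p 0.0254) and a Spearman rho of 0.709 (permutation p 0.0270, adjusted p 0.0545). Lef1 had an r of 0.709 (permutation p 0.0199, adjusted p 0.0331) and a rho of 0.699 (adjusted permutation p 0.0545). Rnf43 ran the other way, with an r of -0.748 (permutation p 0.0101, adjusted p 0.0254) and a rho of -0.661 (adjusted permutation p 0.0545). Nkd1 had an r of -0.421 (adjusted permutation p 0.287) and a rho of -0.685 (adjusted permutation p 0.0545), and Znrf3 had an r of -0.24 (adjusted permutation p 0.505) and a rho of -0.19. Centred within each genotype, the r of Nkd2 was 0.706, that of Rnf43 -0.684 and that of Lef1 0.624 (adjusted permutation p 0.0801, 0.0801 and 0.0987). These permutations shuffled the centred values over all 10 tumours, not within each genotype, so their p-values are approximate. Without EIC 1 and 16IC 4, the tumours farthest from the median Axin2 level, the 3 values of r were 0.651, -0.653 and 0.404 (adjusted permutation p 0.161, 0.161 and 0.397). None of the 3 relations therefore held past the threshold without those tumours. Counts of Lef1 and Axin2 were low. Lef1 had 0 counts in 16IC 1 and 16IC 4, where the prior count alone sets its log2 CPM of -3.02. Axin2 had 7 counts in 16IC 3 and 2 in 16IC 4.

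A recurrent order of tumours cut across genotype. It was chosen after the values of Lgr6 were seen, so Lgr6 has this order by choice, and the count of 5 below includes it. The order is therefore given as a description. 16IC 1, 16IC 3, 16IC 4 and EIC 2 were the 4 lowest tumours for 5 of the 35 tested genes (Lgr6, Lef1, Wnt7b, Dkk3 and Sfrp2), and for 7.88% of all genes tested. They were the 4 highest for 3 of the 35 (Rnf43, Fzd5 and Fzd9), and for 6.64% of all genes tested. For Nkd2, EIC 2 was the fifth lowest at 36.0 CPM, after EIC 3 at 27.2 CPM. The same 4 tumours had the lowest summed fibroblast markers (2445, 422, 1115 and 1808 CPM, the others 2836 to 6884 CPM) and the lowest summed macrophage markers (337, 262, 295 and 341 CPM, the others 363 to 639.8 CPM). They were also the lowest for 5 of 12 fibroblast, 3 of 10 macrophage, 2 of 10 endothelial and 3 of 11 luminal markers tested (Krt8, Krt19 and Cdh1), and for 5 of 10 basal markers. One of these is Krt14, with 0.216, 13, 0, 0.137 and 7.15 CPM in 16IC tumours 1 to 5, against 466, 0.416, 6.41, 174 and 64.3 CPM in EIC tumours 1 to 5. Other sums had other lowest tumours: 16IC 1, 16IC 2, 16IC 3 and 16IC 4 for basal markers, and 16IC 2, 16IC 3, 16IC 4 and EIC 2 for endothelial markers. For luminal markers they were 16IC 3, EIC 2, EIC 3 and EIC 4. The order held for 0 of 8 adipocyte, 0 of 8 skeletal muscle and 0 of 6 Schwann cell markers tested. It also held for 0 of 3 T and NK cell and 0 of 2 skin markers. The part of these cell types in the levels of the Wnt pathway genes was not tested.

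**Figure D5:**
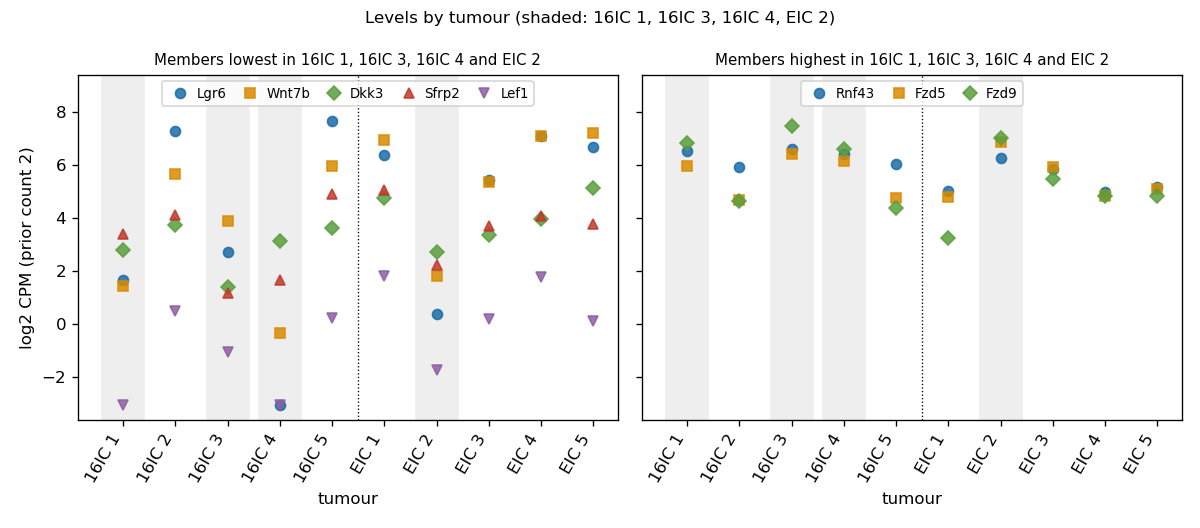
Log2 CPM (y axis, prior count 2) by tumour (x axis, 16IC left of the dotted line and EIC right of it) of the 5 genes lowest, and the 3 genes highest, in the shaded tumours 16IC 1, 16IC 3, 16IC 4 and EIC 2. Lgr6 spans 0 to 202 CPM, and the shaded tumours belong to both genotypes.

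The rest of the pathway was read from lists of 75 other genes, of which 61 were tested. At an unadjusted p under 0.05 there were 7 of them (11.5%, against 13.1% of all genes tested), 3 higher and 4 lower in 16IC, and neither edgeR nor DESeq2 called any. 18 were above 0 in log2 difference (29.5%) and 43 below (70.5%), against 47.7% and 52.3% of all genes tested. 2 of the 61, Wls and Tle4, had values that did not overlap between the genotypes (3.28%, against 2.58% of all genes tested). Wls, which carries Wnts to the cell surface, had 125, 130, 155, 168 and 130 CPM in 16IC tumours 1 to 5, against 173, 182, 193, 201 and 172 CPM in EIC tumours 1 to 5. All 16IC values lie below all EIC values (log2 difference -0.38, SE 0.12, edgeR p 0.0109, adjusted p 0.290). Tle4, a co-repressor that TCF proteins recruit, had 50.2, 28.7, 25.5, 26.7 and 32.5 CPM in 16IC tumours, against 18.9, 20.3, 9.95, 20.3 and 19.9 CPM in EIC tumours. Here all 16IC values lie above all EIC values (log2 difference 0.87, SE 0.25, edgeR p 0.00518, adjusted p 0.286).

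The other 5 genes with an unadjusted p under 0.05 (0.0120 to 0.0267) had edgeR adjusted p between 0.290 and 0.336, and none passed the test. Apc2 averaged 5.15 ± 3.74 CPM in 16IC and 1.42 ± 1.41 CPM in EIC (log2 difference 1.86), while its relative Apc, a core part of the destruction complex, averaged 99.7 ± 9.82 CPM in 16IC and 141 ± 39.7 CPM in EIC (log2 difference -0.50). Of the planar polarity genes, Prickle2 averaged 46.3 ± 6.45 CPM in 16IC and 26.3 ± 13.9 CPM in EIC (log2 difference 0.82), and Vangl2 averaged 14.2 ± 2.57 CPM in 16IC and 21.3 ± 4.05 CPM in EIC (log2 difference -0.59). Ephb2, reported as a target in the intestine, averaged 1.51 ± 0.927 CPM in 16IC and 4.98 ± 3.73 CPM in EIC (log2 difference -1.72). Beta-catenin itself (Ctnnb1) averaged 745 ± 227 CPM in 16IC and 853 ± 568 CPM in EIC (log2 difference -0.19, edgeR adjusted p 0.836).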

How the data were processed

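Bulk RNA was measured in 10 mammary tumours, 5 of each genotype. An RNeasy Mini kit served for RNA and NEBNext Ultra II for the libraries, per the labels' protocols. The tools were Trimmomatic, STAR, HTSeq, edgeR and limma, on GRCm38 (mm10), per the submitters' processing notes. The sources used here do not give versions, annotation release, strand setting or how multi-mapping reads were treated. The deposited table holds raw counts per gene and library. It also holds the authors' normalized counts, a signal equal to the counts divided by 1 factor per library, and the authors' FPKM values. The deposited log2 fold changes and p-values of the authors describe 16IC over EIC, and DESeq2 on the deposited counts gave the same 356 calls.

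Counts were scaled by TMM and filtered with filterByExpr (minimum count 10), which kept 14915 genes and 99.8% of counts. They were tested with edgeR 4.0.16 (quasi-likelihood, robust) in R 4.3.3, with Benjamini-Hochberg adjustment over all genes tested. DESeq2 1.42.0, limma 3.58.1 (voom with quality weights), other scalings and filters, and fits without each tumour were alternatives. The scripts were tested on simulated data. FPKM was used to compare levels between genes and for the ligand sums and shares per tumour, and no FPKM value was tested between genotypes. Permutation tests of single genes cover all 252 arrangements, and those of correlations 100000. P-values therefore reflect differences among animals. Tumour numbers come from sample order and pair nothing, and no batch is labelled. No 2 libraries of a genotype agreed within sampling noise. The median biological coefficient of variation was 33.6%.

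The genes and lists were chosen with earlier results of these data known. Named with all values are genes past a threshold by edgeR or DESeq2 or with an unadjusted edgeR p under 0.05, the 2 with the highest mean CPM in each role, and all feedback targets. From the other lists, genes with an unadjusted p under 0.05 are named. Fzd5, Fzd6, Fzd9, Dkk3, Krt14, Ctnnb1 and the untested genes named were chosen after their values were seen. Overlaps between exons come from GENCODE mouse release 21, and promoters from RefSeq. Libraries are bulk, and marker lists only describe cell makeup.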

Additional observations from a re-analysis of the deposited data

Results flagged for a closer look

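In 46 groups of 5 tumours looked at, 2 held a tumour far from the other 4, and chance marks about 1 in 20 such groups. Lgr6 stood at 1.19 CPM in EIC 2, against 43.5 to 136 CPM in the other EIC tumours. The summed CPM of the feedback targets was 140.3 in 16IC 2, against 121 to 125 in the other 16IC tumours.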

How the results depend on the processing

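DESeq2 called 356 genes and 1 pathway gene, where edgeR called 0 of each. At an unadjusted p under 0.05, voom took 6 of 35 pathway genes (17.1%, against 18.6% of all genes) where edgeR took 3. DESeq2, which does not share edgeR's filter, took 6 of 49 (12.2%, against 11.1% of all genes), 5 of them among the 35. Without 1 tumour at a time, edgeR called 0 to 2 genes (1 without EIC 1, 2 without EIC 2) and 0 pathway genes, and took 2 to 6 pathway genes at an unadjusted p under 0.05 (6 without 16IC 5, 2 without 16IC 3 or EIC 5). Nkd2 was called by DESeq2 and by no edgeR or voom fit. In fits chosen after seeing the data, DESeq2 without EIC 1 called Wnt4 in place of Nkd2. Log2 differences close to 0 changed sign. Axin1 was -0.015 under total-count scaling. Lgr6 was -0.0094 with RLE factors, -0.0098 with DESeq2 and -3.09 with voom. Nkd1 was 0.00105 without the filter and 0.12 with voom, Sfrp1 was 0.53 and Wnt5b -0.57 with voom, and the cause was not tested. Without 1 tumour at a time, ranges crossing 0 were -0.011 to 0.093 for Axin1, -0.074 to 0.32 for Lgr4, -0.85 to 0.33 for Lgr6, -0.078 to 0.17 for Lrp6, -0.58 to 0.44 for Nkd1, -0.45 to 0.48 for Sfrp1, -0.98 to 0.079 for Sfrp2 and -0.53 to 0.42 for Wnt5b. The ranges of Nkd2 (-3.53 to -2.26), Rnf43 (0.67 to 1.04) and Wnt4 (1.28 to 2.34) kept their direction. With genotype centring, the r with Axin2 was 0.706 for Nkd2, -0.684 for Rnf43 and 0.624 for Lef1. Without EIC 1 and 16IC 4 it was 0.651, -0.653 and 0.404, and 0.0313 for Znrf3, with 8 tumours left. No paired analysis was possible because the tumour numbers follow the order of the samples. With 5 tumours a genotype and several-fold spread, differences as large as those of Lgr6's interval could not be resolved, and the untested genes had too few counts to compare.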
